A study of Mus musculus with 7 samples.

Results

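The genes of the AP-1 transcription factor family were followed in skin papillomas of mice with and without inducible *Nanog* overexpression. 10 genes were chosen by symbol, under a rule that uses no measured value, though earlier results of these data were known. They were *Fos*, *Fosb*, *Fosl1* and *Fosl2* (the Fos family), *Jun*, *Junb* and *Jund* (the Jun family), and their dimer partners *Atf3*, *Batf* and *Maff*. All 10 were found in each file, among 23284 gene symbols, and each had a single entry whose estimate had not failed. RNA was sequenced from papillomas of 4 CTR and 3 TG mice, with a separate library for each mouse. CTR mice carried the *tetO-Nanog* allele downstream of *Col1a1* and lacked the transactivator, and TG mice carried the same allele together with *K5-rtTA*, in which the bovine keratin 5 promoter restricts the transactivator to the basal layer of stratified epithelia. Both groups were on a C57BL/6 background, were age-matched young adults when the protocol began, and drank doxycycline (2 mg/ml) throughout. Their ages at collection are not given. Both received a single dose of the carcinogen DMBA followed by repeated topical TPA. TPA was then stopped, and papillomas were collected after an observation period or earlier at the humane endpoint, so the values are not those of skin freshly exposed to TPA. The paper reports that large carcinomas forced many TG mice to be killed early, while all CTR tumors were benign. Which sequenced papillomas came from an early endpoint is not given. Time since the last TPA and carcinoma burden therefore cannot be told apart from genotype.

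AP-1 is a dimer of basic leucine zipper proteins that takes part in the response to TPA, which activates protein kinase C and, through it, the MAP kinases. Jun proteins can pair with each other or with Fos proteins, whereas Fos proteins need a partner from another subfamily to bind DNA. The dimers bind the TPA response element TGACTCA and, less tightly, the cyclic AMP response element TGACGTCA. In keratinocytes AP-1 is known for its part in proliferation, wound repair and the genes of the cornified envelope, and *Fos* is known to be needed for the malignant progression of mouse skin tumors.

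The promoters of the family were examined for these elements, since several AP-1 genes are known to be controlled by AP-1 and ATF proteins. The RefSeq table of promoters (GRCm38.p6, the build of the files) gives windows of 300 bases, from 250 before to 50 after each gene start, and held 9 of the 10 genes, with 3 windows for *Maff*. The motifs TGACTCA, TGACGTCA and the CArG box, which serum response factor binds, were searched on both strands, and the related words TGACATCA, TTACCTCA and TTACGTCA were added after the windows had been read. TGACTCA and the CArG box were in no window of the family, and in 5.2% and 1.63% of all 32851 windows. Sequence farther than 250 bases before a gene start was not searched, so elements there would be missed. The following windows, 1 for each gene with a match, are shown with the match in capitals and lie at chr15:79347270-79347569 on the plus strand for *Maff*, chr4:95052173-95052472 on the minus strand for *Jun* and chr1:191183284-191183583 on the minus strand for *Atf3*.
Maff: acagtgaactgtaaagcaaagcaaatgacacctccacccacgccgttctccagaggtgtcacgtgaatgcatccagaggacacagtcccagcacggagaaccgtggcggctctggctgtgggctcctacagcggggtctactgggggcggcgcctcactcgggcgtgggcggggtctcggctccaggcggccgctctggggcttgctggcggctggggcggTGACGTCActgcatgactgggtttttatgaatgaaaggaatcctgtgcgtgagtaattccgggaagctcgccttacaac
Jun: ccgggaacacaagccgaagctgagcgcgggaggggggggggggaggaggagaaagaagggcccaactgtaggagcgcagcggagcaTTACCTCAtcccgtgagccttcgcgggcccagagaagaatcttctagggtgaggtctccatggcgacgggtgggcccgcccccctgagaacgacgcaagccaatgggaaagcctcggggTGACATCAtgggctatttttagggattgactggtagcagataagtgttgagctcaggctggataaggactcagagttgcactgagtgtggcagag
Atf3: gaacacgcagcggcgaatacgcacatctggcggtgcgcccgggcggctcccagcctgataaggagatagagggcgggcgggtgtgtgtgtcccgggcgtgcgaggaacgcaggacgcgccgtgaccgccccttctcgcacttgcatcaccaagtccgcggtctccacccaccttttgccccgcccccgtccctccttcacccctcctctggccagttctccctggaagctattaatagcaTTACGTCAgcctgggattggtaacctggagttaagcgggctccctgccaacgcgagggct
The *Maff* window held TGACGTCA starting 29 bases before the gene start, a word found in 1.79% of all windows. The *Jun* window held TGACATCA starting 45 bases and TTACCTCA starting 164 bases before the gene start, words found in 3.62% and 0.889% of all windows. TGACATCA was also in another *Maff* window, 45 bases before its gene start. The *Atf3* window held TTACGTCA starting 10 bases before the gene start, a word found in 0.499% of all windows. No matches overlapped. The windows of *Fos*, *Fosb*, *Fosl2*, *Junb*, *Jund* and *Batf* held none of these words. Other variants were not searched, such as TGACGTAG in the *Fos* window and TGACGCAA in the *Fosb* window, so related elements are not excluded there. The words added later were picked from these same windows, so their shares cannot show how unusual the matches are. On the GENCODE annotation *Jund* starts at 70698949, past the end of its window at 70697788. *Fosl2* starts there at 32135801, before its window, which begins at 32136222. The sequence around those 2 starts was not searched.

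Each library had between 10074859 and 15710562 reads on genes, as implied by the Cufflinks intervals, with more reads in CTR 3 and TG 1 than in the other papillomas. *Nanog* (chromosome 6, 122707568 to 122713778) was at 2.70, 2.84, 12.7 and 3.34 FPKM (fragments scaled to transcript length and to the mapped fragments of the library) in CTR 1 to CTR 4. It was at 36.9, 57.4 and 66.9 FPKM in TG 1 to TG 3. These values cannot separate the transgene from the endogenous gene, and CTR 3 was the highest of the CTR papillomas. On the log2(FPKM + 0.5) scale *Nanog* differed by 3.45 (SE 0.48, adjusted p = 0.400 from limma, exact permutation p = 0.0286). Even this induced gene was therefore not called at an adjusted p under 0.05. TG 3 stood apart, with a median of 1.14 FPKM over all genes against 0.539 to 0.673 in the other papillomas. The summed level of 8 skeletal muscle markers was 644.7 FPKM in TG 3 and 8.51 to 13.8 FPKM elsewhere, and that of 6 fibroblast markers was 677.9 against 73.5 to 128.6 FPKM. Myeloid markers summed to 150.3 FPKM in TG 3 and 34.6 to 46.0 FPKM elsewhere, and endothelial markers to 20.02 FPKM and 4.63 to 11.4 FPKM. Of the 6 myeloid markers 4 were highest in TG 3, and *Cd68* and *Cxcr2* were not. The adipocyte markers *Adipoq*, *Plin1* and *Cfd* were at 3.34, 0.824 and 26.0 FPKM in TG 3 and at 0.0484 FPKM or less elsewhere. The 4th adipocyte marker, *Fabp4*, made up most of the adipocyte sum and was not highest in TG 3. The basal keratinocyte markers *Krt5*, *Krt14*, *Trp63* and *Itga6* were present in every papilloma, with a summed level between 6538 and 12795 FPKM. In such bulk samples, fewer cells of a type and less RNA per cell cannot be told apart.

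*Junb* was the most abundant AP-1 gene in every papilloma, and the family covered levels from 111.8 FPKM for *Junb* down to 0.219 FPKM for *Batf* (means over the 7 papillomas; FPKM is per transcript length). *Jund* followed at 23.4 FPKM, *Fosl2* at 17.4 FPKM, *Jun* at 13.1 FPKM, *Maff* at 12.6 FPKM and *Fos* at 10.1 FPKM. *Fosl1* at 2.54 FPKM, *Atf3* at 1.32 FPKM and *Fosb* at 0.901 FPKM were lower. By mean level *Junb* ranked 416th and *Fos* 4239th of the 23122 symbols with values. Neighbors in this order were compared within papillomas by exact sign-flip permutation tests of log2(FPKM + 0.5), with p-values adjusted over the 9 pairs and a smallest unadjusted p of 0.0156. *Junb* exceeded *Jund* by 2.23 on the log2 scale, and this held in 7 of 7 papillomas (adjusted p = 0.0352, exact test). *Fosl2* over *Jun*, *Fos* over *Fosl1* and *Fosb* over *Batf* also held in 7 of 7 papillomas with the same adjusted p. The other neighbors did not differ beyond their spread. *Jund* was above *Fosl2* in 6 of 7 papillomas (adjusted p = 0.117, exact test), and *Jun* was above *Maff* in 4 of 7 (adjusted p = 0.625, exact test).

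**Figure D1:**
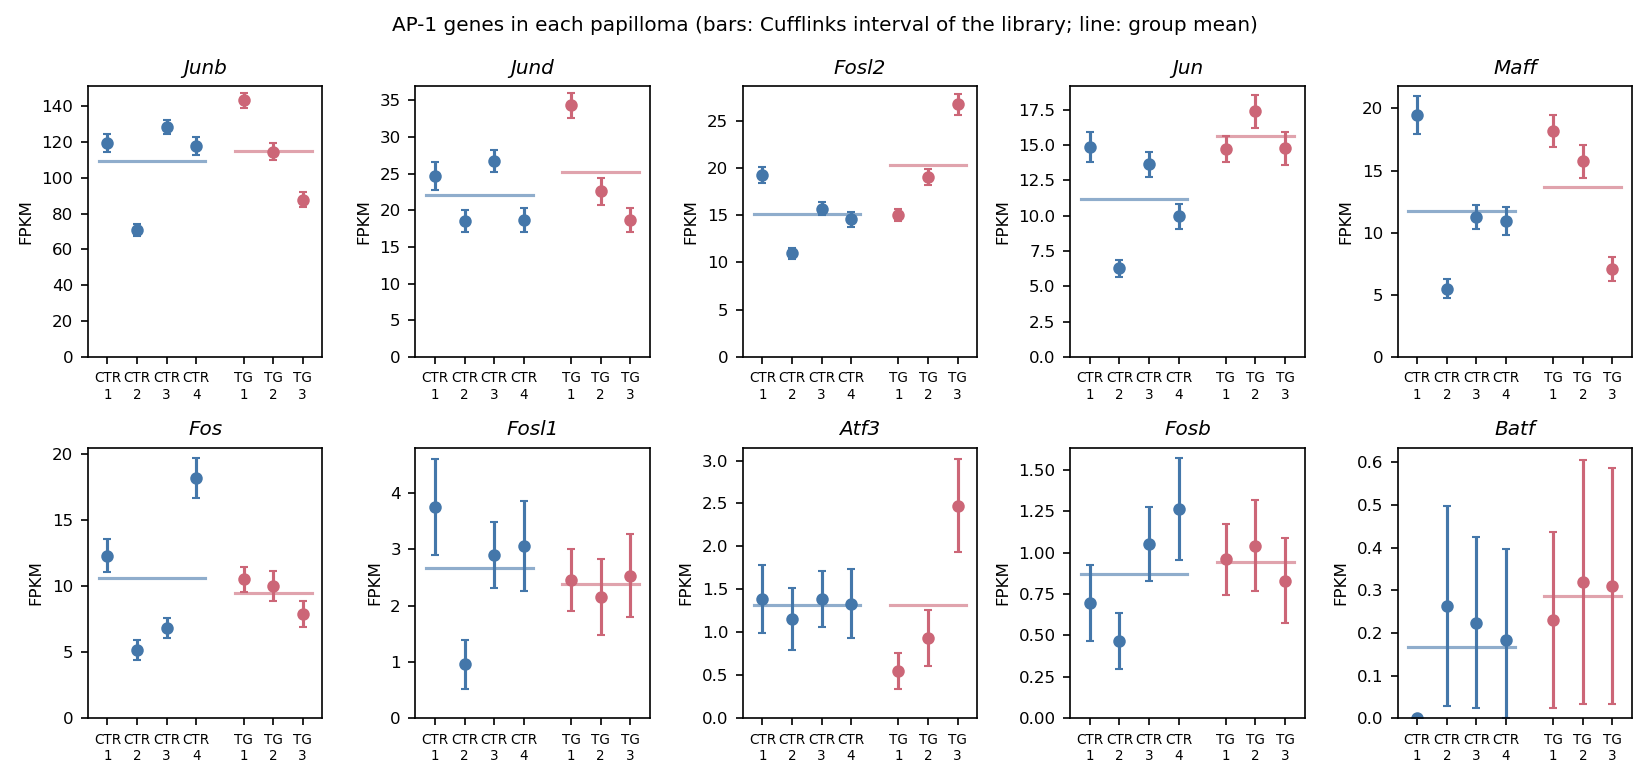
FPKM of the 10 AP-1 genes in each papilloma, with the Cufflinks interval of that library as bars and the group mean as a line; each panel starts at 0 and has its own scale. CTR (blue) and TG (red) papillomas overlapped for all 9 genes above the level needed for testing, and *Batf* lay at 0.319 FPKM or less throughout.

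Among the Jun family, *Jun* had the largest difference between the groups of all 9 genes tested, and *Junb* and *Jund* were at similar levels in both. *Jun* (chromosome 4, 95049036 to 95052222, minus strand) is an intronless immediate-early gene whose protein is the main activating Jun partner. Its level was 14.9, 6.28, 13.6 and 9.96 FPKM in CTR 1 to CTR 4, and 14.7, 17.4 and 14.8 FPKM in TG 1 to TG 3. The TG papillomas lay close together, and 2 of 4 CTR papillomas, CTR 1 and CTR 3, lay beside them. The group means were 11.2 ± 3.88 (SD, n = 4) and 15.6 ± 1.53 FPKM (SD, n = 3), and the difference was 0.53 on the log2(FPKM + 0.5) scale (SE 0.28, 95% interval -0.10 to 1.16). TG was higher in 10 of 12 pairs of a TG with a CTR papilloma, with an adjusted p of 0.810 from limma and an exact permutation p of 0.200. Without CTR 2 the difference was 0.29, and without CTR 1 the groups no longer overlapped (difference 0.68, adjusted p = 0.941 from limma).

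*Junb* (chromosome 8, 84976909 to 84978748, minus strand), whose protein is known to restrain keratinocyte growth, was at 119.7, 70.9, 128.4 and 117.8 FPKM in CTR 1 to CTR 4. In TG 1 to TG 3 it was at 143.3, 114.6 and 87.9 FPKM. CTR 2 was the lowest and TG 1 the highest, with the others between them. The means were 109.2 ± 25.9 (SD, n = 4) and 115.2 ± 27.7 FPKM (SD, n = 3), which on the log2 scale differed by 0.09 (SE 0.26, 95% interval -0.50 to 0.67, adjusted p = 0.983 from limma). *Jund* (chromosome 8, 70697739 to 70700616, plus strand), the Jun gene that is the least dependent on stimulation, was at 24.6, 18.6, 26.7 and 18.7 FPKM in CTR papillomas and 34.3, 22.6 and 18.7 FPKM in TG papillomas. Its log2 difference was 0.16 (SE 0.24, 95% interval -0.38 to 0.70, adjusted p = 0.95 from limma). On the GENCODE annotation 52.6% of the *Jund* exon bases lie opposite the antisense gene *Gm11175*, so its value may hold reads of both.

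Among the Fos family, *Fosl2* and *Fosb* had the higher mean in TG papillomas and *Fos* and *Fosl1* the lower, and none of the differences exceeded the spread between mice. *Fosl2* (chromosome 5, 32136472 to 32157839, plus strand) encodes a Fos protein without the strong activating domain of FOS. It was at 19.3, 11, 15.7 and 14.6 FPKM in CTR 1 to CTR 4 and at 15.0, 19.1 and 26.8 FPKM in TG 1 to TG 3. TG 3 was the highest and TG 1 lay within the CTR range. The means were 15.2 ± 3.43 (SD, n = 4) and 20.3 ± 5.96 FPKM (SD, n = 3), and the log2 difference of 0.40 (SE 0.25, 95% interval -0.16 to 0.95) had an adjusted p of 0.831 from limma. Without TG 3, the papilloma with the high sums of muscle, fibroblast, myeloid and endothelial markers, the difference was 0.18. The part of those markers in the level of *Fosl2* was not tested.

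*Fos* (chromosome 12, 85473901 to 85477270, plus strand), the classic immediate-early gene, varied more between CTR mice than between the groups. It was at 12.3, 5.18, 6.83 and 18.2 FPKM in CTR 1 to CTR 4, and at 10.5, 10.03 and 7.89 FPKM in TG 1 to TG 3. All TG values lay inside the CTR range, which spanned 3.52-fold. The means were 10.6 ± 5.92 (SD, n = 4) and 9.49 ± 1.41 FPKM (SD, n = 3), which on the log2 scale differed by -0.01 (SE 0.38, 95% interval -0.87 to 0.85, adjusted p = 0.998 from limma). As fold changes the interval ran from 0.546 to 1.80, so changes of that size were not detectable. *Fosb* (chromosome 7, 19302696 to 19310045, minus strand), another immediate-early gene, was at 0.694, 0.468, 1.05 and 1.26 FPKM in CTR papillomas and 0.959, 1.04 and 0.831 FPKM in TG papillomas. Its log2 difference was 0.11 (SE 0.26, adjusted p = 0.971 from limma).

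*Fosl1* (chromosome 19, 5447698 to 5455938, plus strand), which encodes a Fos protein known from invasive carcinoma cells, was at 3.75, 0.960, 2.91 and 3.06 FPKM in CTR 1 to CTR 4. It was at 2.45, 2.15 and 2.53 FPKM in TG 1 to TG 3. CTR 2 alone was below the TG papillomas, and the other CTR papillomas were above all of them. The log2 difference was -0.04 (SE 0.35, 95% interval -0.82 to 0.75, adjusted p = 0.995 from limma), and without CTR 2 it was -0.37 (adjusted p = 0.868 from limma). Of the *Fosl1* exon bases, 1163 of 1864 (62.4%), among them 2 of its 4 exons in full, lie within the exon of *Ccdc85b* on the opposite strand. The libraries were stranded, but the strand setting of the quantification is not given in the sources used here, so reads of *Fosl1* and *Ccdc85b* cannot be told apart. *Ccdc85b* was at 1.85 to 2.69 times the FPKM of *Fosl1* in the 7 papillomas.

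Among the dimer partners, *Atf3* varied mostly within the TG group and *Maff* within both groups. TG 3 was the highest TG papilloma for *Atf3* and the lowest for *Maff*. *Atf3* (chromosome 1, 191170297 to 191183333, minus strand), a stress-induced gene whose protein often represses, was at 1.39, 1.15, 1.39 and 1.34 FPKM in CTR 1 to CTR 4. It was at 0.551, 0.935 and 2.47 FPKM in TG 1 to TG 3. The CTR papillomas were alike, TG 1 and TG 2 were below all of them and TG 3 was above all of them, at 3.33 times the mean of TG 1 and TG 2. Both means were 1.32 FPKM, with an SD of 0.111 in CTR (n = 4) and 1.02 in TG papillomas (n = 3). The log2 difference was -0.14 (SE 0.34, 95% interval -0.90 to 0.62, adjusted p = 0.972 from limma). Without TG 3 it was -0.56, with no overlap between the groups and an adjusted p of 0.421 from limma. The part of the muscle, fibroblast, myeloid and endothelial markers of TG 3 in the levels of *Atf3* and *Maff* was not tested.

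*Maff* (chromosome 15, 79347678 to 79359076, plus strand) encodes a small Maf protein that lacks an activating domain. It was at 19.4, 5.49, 11.2 and 10.9 FPKM in CTR 1 to CTR 4 and at 18.2, 15.8 and 7.07 FPKM in TG 1 to TG 3. CTR 2 and TG 3 were the lowest of their groups, and TG 3 was at 0.416 of the mean of TG 1 and TG 2. The log2 difference was 0.23 (SE 0.43, 95% interval -0.74 to 1.2, adjusted p = 0.963 from limma), and it was 0.63 without TG 3 (adjusted p = 0.715 from limma). *Batf* (chromosome 12, 85686720 to 85709087, plus strand), known from lymphocytes, was listed at 0 FPKM in CTR 1 and at 0.263, 0.224 and 0.184 FPKM in CTR 2 to CTR 4. It was at 0.231, 0.319 and 0.310 FPKM in TG papillomas. These values stand for at most 5 implied reads each, were under the minimum mean of 0.5 FPKM for the limma fit, and did not differ beyond their spread (exact permutation p = 0.171).

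Of the 9 AP-1 genes tested, 0 had an adjusted p under 0.05 in limma and 0 had an unadjusted p under 0.05. Of the 12299 genes tested, 0% passed the adjusted threshold and 6.82% the unadjusted one (4.86% higher and 1.96% lower in TG papillomas). Likewise, 0 of the 9 separated the groups without overlap, which 7.16% of all tested genes did (4.93% with TG higher and 2.23% with TG lower). 6 of the 9 genes had the higher mean in TG papillomas, as did 60% of all tested genes. Over the 9 genes the differences had a median of 0.11 (log2), beside 0.06 for all tested genes, and it was -0.07 without CTR 2. An exact permutation over the 35 splits of 4 against 3 cannot go below 0.0286, and the smallest value among the AP-1 genes was 0.171.

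**Figure D2:**
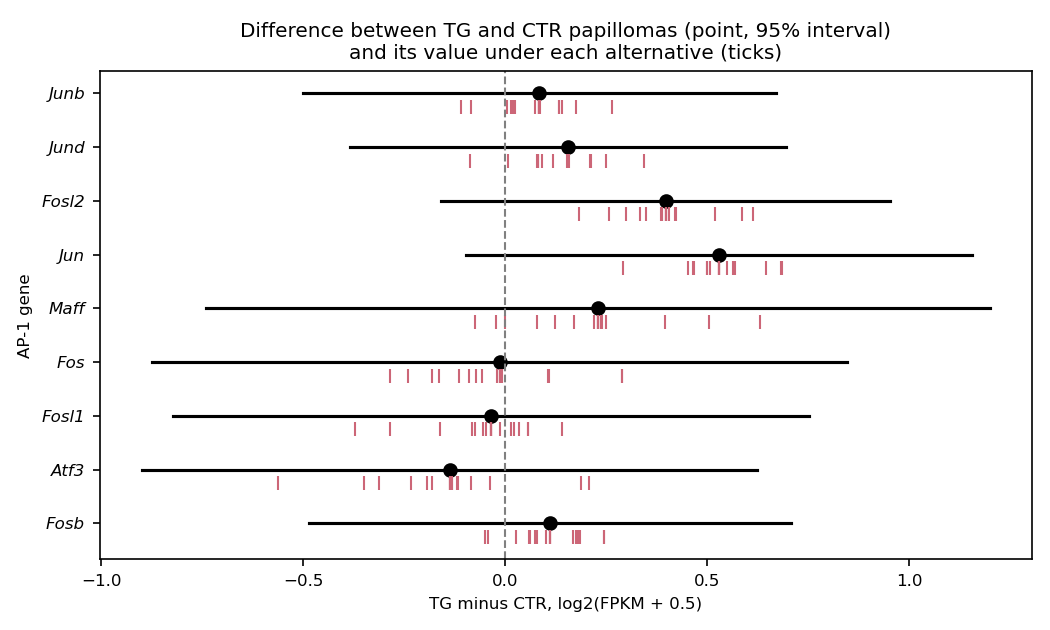
Difference of TG minus CTR papillomas on the log2(FPKM + 0.5) scale for the 9 AP-1 genes tested (point, with its 95% limma interval) and its value under each alternative processing (ticks). All 9 intervals include 0, and the ticks lie on both sides of 0 except for *Fosl2* (0.18 to 0.61) and *Jun* (0.29 to 0.68).

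A single CTR papilloma was low for most of the family. CTR 2 was the lowest papilloma for 8 of the 10 genes, all except *Atf3* and *Batf*, whereas 30.2% of all tested genes were lowest in CTR 2. Its level relative to the mean of the other 3 CTR papillomas was 0.297 for *Fosl1*, 0.396 for *Maff*, 0.415 for *Fos*, 0.466 for *Fosb* and 0.490 for *Jun*. It was 0.582 for *Junb*, 0.665 for *Fosl2*, 0.795 for *Jund* and 0.842 for *Atf3*. The median of the 9 tested AP-1 genes in CTR 2 was -0.62 on the log2 scale relative to each gene's own mean, beside -0.17 for all tested genes. CTR 2 had 10074859 implied reads, close to the 10096919 of CTR 4, and its summed marker levels of basal keratinocytes, fibroblasts and muscle lay within the range of the other CTR papillomas. The basal sum was mostly *Krt14* (6932 FPKM in CTR 2) and *Krt5* (1697 FPKM). The other basal markers, *Trp63* (30.9 FPKM) and *Itga6* (24.7 FPKM), were lower in CTR 2 than in any other papilloma. Among CTR papillomas, CTR 2 had the highest sums for suprabasal keratinocytes (3319 FPKM), myeloid cells (46.0 FPKM) and T cells (1.85 FPKM). Its adipocyte sum was the lowest (1374 FPKM, almost all *Fabp4*). No single suprabasal marker was highest in CTR 2. Of the myeloid markers only *Lyz2* was, at 18.7 FPKM against 4.37 to 8.43 FPKM in the other CTR papillomas, and *Cd68* was lowest in CTR 2 (15.4 FPKM). The part of these markers in the AP-1 levels was not tested. The highest papilloma differed from gene to gene. *Fosl1* and *Maff* were highest in CTR 1, *Fos* and *Fosb* in CTR 4, *Junb* and *Jund* in TG 1, *Jun* and *Batf* in TG 2, and *Fosl2* and *Atf3* in TG 3, where 41.1% of all tested genes were highest.

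**Figure D3:**
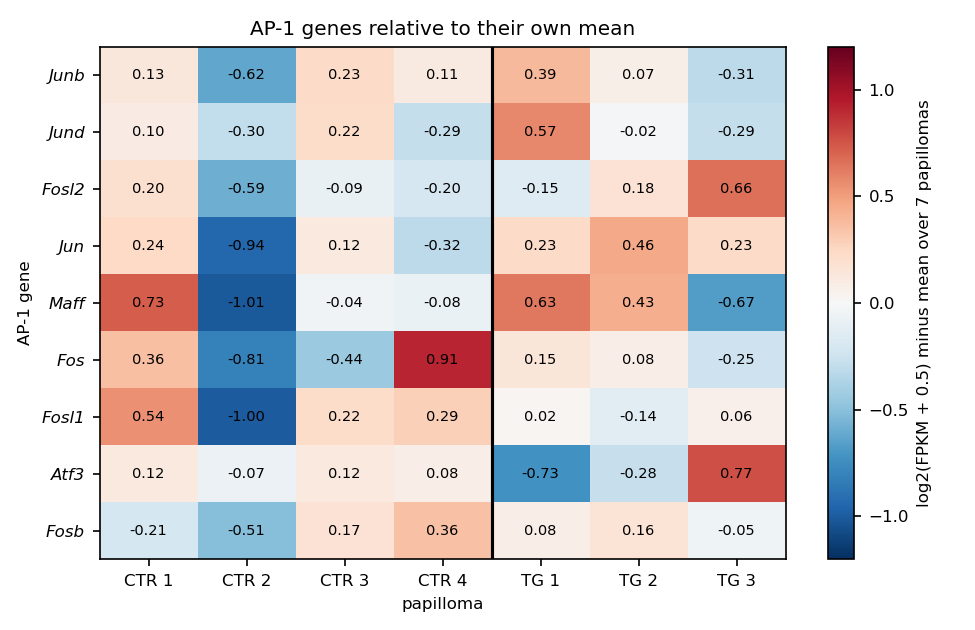
log2(FPKM + 0.5) of the 9 tested AP-1 genes in each papilloma minus the gene's mean over the 7 papillomas, with the value in each cell. The CTR 2 column lies below 0 for all 9 genes, from -0.07 for *Atf3* to -1.01 for *Maff*, and the line marks the border between CTR and TG papillomas.

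The spread between the CTR mice is given relative to the counting error of a library, a ratio that grows with the reads of a gene and so does not compare genes. The SD between the 4 CTR papillomas was 11.8 times the counting SD from the Cufflinks intervals for *Junb*, and 2.45 times without CTR 2. For *Fosl1* it was 3.47 times and without CTR 2 1.19 times, for *Jun* 8.78 and 5.32 times, and for *Fos* 10.6 and 9.40 times. For *Atf3* it was 0.596 times, so its CTR papillomas differed by no more than counting error.

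The makeup of the Jun family differed little between papillomas, and that of the Fos family differed more. Shares were taken of the summed FPKM of a family, which does not depend on the scaling between papillomas. *Junb* made up 72.4% to 80.5% of the Jun family in every papilloma. The share of *Jun* was 9.34%, 6.55%, 8.08% and 6.80% in CTR 1 to CTR 4 and 7.67%, 11.3% and 12.2% in TG 1 to TG 3. These groups overlapped through TG 1, and the means of 7.69% ± 1.28 (SD, n = 4) and 10.4% ± 2.38 (SD, n = 3) differed by 2.67 percentage points (exact permutation p = 0.143, adjusted p = 0.845 over 9 sums and shares). In the Fos family, *Fosl2* had the largest share in 6 of 7 papillomas and ranged from 39.2% in CTR 4 to 70.4% in TG 3, while in CTR 4 *Fos* had the largest share with 49.1%. The mean share of *Fosl2* was 53.6% ± 10.3 (SD, n = 4) in CTR and 60.4% ± 9.34 (SD, n = 3) in TG papillomas (exact permutation p = 0.486). The summed Fos family was at 36.1, 17.6, 26.5 and 37.1 FPKM in CTR and 29.0, 32.3 and 38.0 FPKM in TG papillomas, a log2 difference of 0.23 (exact permutation p = 0.571). The summed Jun family was at 159.2, 95.8, 168.8 and 146.4 FPKM in CTR and 192.3, 154.6 and 121.3 FPKM in TG papillomas, a log2 difference of 0.14 (exact permutation p = 0.657). No sum or share had an adjusted p under 0.845 over the 9 exact tests.

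**Figure D4:**
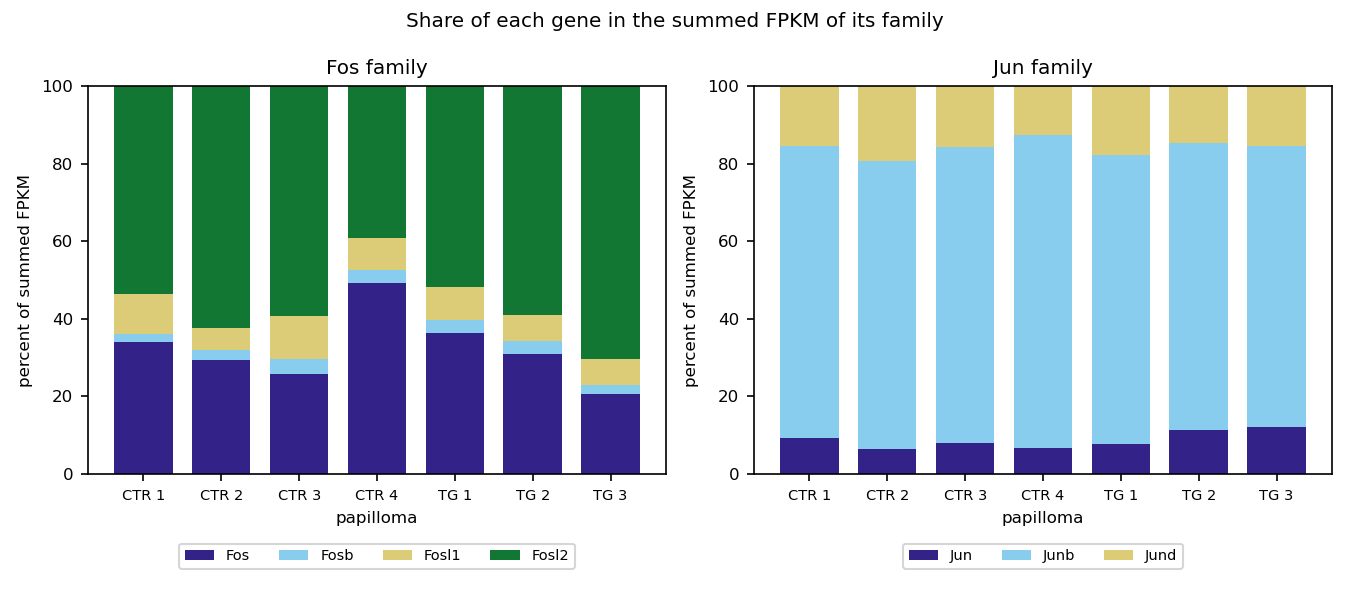
Percent of the summed FPKM of the Fos family (left) and of the Jun family (right) taken by each gene in each papilloma. *Junb* fills 72.4% to 80.5% of each Jun bar, and the *Fosl2* part of the Fos bars runs from 39.2% in CTR 4 to 70.4% in TG 3.

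The genes around AP-1 were taken as 4 lists: other basic leucine zipper genes of the AP-1 families, immediate-early genes, protein kinase C and MAP kinase genes, and genes known as AP-1 targets in skin. Of their 70 tested genes, 0 had an adjusted p under 0.05 in limma and 3 an unadjusted p under 0.05, where 6.82% of all tested genes passed the latter. 5 of the 70 did not overlap between the groups, where 7.16% of all tested genes did not. Of the 11 other basic leucine zipper genes, 8 could be tested and 0 had an unadjusted p under 0.05. Their median log2 difference was 0.11. *Atf7* and *Maf* had log2 differences of 0.43 and 0.27, and *Atf4*, the integrated stress response factor, and *Mafg*, a small Maf gene, had -0.12 and -0.03.

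Of the 23 immediate-early genes 22 were tested, 13 had the higher mean in TG papillomas where 60% of all tested genes did, and their median log2 difference was 0.10. *Egr2*, a zinc finger gene, had the only unadjusted p under 0.05 (0.0225). It was at 0.561, 1.06, 0.721 and 0.650 FPKM in CTR and 0.995, 2.62 and 1.62 FPKM in TG papillomas, which is 0.80 on the log2 scale (adjusted p = 0.687 from limma). *Ier5* was 1 of 22 genes of the list without overlap between the groups (7.16% of all tested genes), at 15.1 to 20.1 FPKM in CTR and 20.7 to 26.2 FPKM in TG papillomas (log2 difference 0.35, adjusted p = 0.760 from limma). *Ppp1r15a*, which resets translation after stress, had a log2 difference of 0.57. The lowest p-values among genes with the lower mean in TG papillomas belonged to *Nr4a2* with -0.60, *Myc* with -0.18 and *Arc* with -0.48 on the log2 scale, and their adjusted p-values lay between 0.820 and 0.928 in limma.

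Of the 20 kinase pathway genes 18 were tested, 0 had an unadjusted p under 0.05 in limma, and their median log2 difference was 0.15. *Elk1*, which encodes a MAP kinase target that drives *Fos*, did not overlap between the groups, at 0.962 to 1.29 FPKM in CTR and 1.51 to 1.77 FPKM in TG papillomas. Its log2 difference was 0.41 (adjusted p = 0.760 from limma). *Prkcd*, a protein kinase C gene named after its values were seen, also did not overlap, so that 2 of 18 genes did not (7.16% of all tested genes), at 17.3 to 21.2 FPKM in CTR and 21.3 to 27.7 FPKM in TG papillomas. Its log2 difference was 0.26 (adjusted p = 0.837 from limma). *Elk3* and *Prkcb* had log2 differences of 0.37 and 0.45, and the MAP kinase genes *Map2k1*, *Map2k2* and *Mapk3* had -0.11, -0.09 and -0.07.

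Of the 23 AP-1 target genes 22 were tested and 16 had the higher mean in TG papillomas, beside 60% of all tested genes. Their median log2 difference was 0.35, beside 0.06 for all tested genes. Without TG 3 this median was 0.12, and with sample quality weights, which gave TG 3 the lowest weight (0.272), it was -0.07. *Ivl*, which encodes the cornified envelope protein involucrin, was at 26.8, 17.7, 18.9 and 21.2 FPKM in CTR 1 to CTR 4. It was at 159.0, 107.6 and 36.4 FPKM in TG 1 to TG 3, above all CTR papillomas. The log2 difference was 2.01 (SE 0.43, adjusted p = 0.538 from limma, exact permutation p = 0.0286). Over the alternatives its difference was 1.51 to 2.62 and its adjusted p from 0.0148 to 0.999, under 0.05 without TG 3 and with quality weights (0.0195). The suprabasal markers *Krt1*, *Krt10* and *Lor* summed to 5996 and 7132 FPKM in TG 1 and TG 2, 679.6 FPKM in TG 3 and 2249 to 3319 FPKM in CTR papillomas. In TG 1 and TG 2 only *Krt1* and *Krt10* were above all CTR papillomas. *Lor*, at 1329 and 690 FPKM there, lay within its CTR range of 618 to 1555 FPKM. The part of these markers in the level of *Ivl* was not tested. *Plau*, the gene of the protease urokinase, also separated the groups, by 1.52 on the log2 scale (adjusted p = 0.498 from limma), so that 2 of 22 target genes did (7.16% of all tested genes). The paper, which tested differential expression with Cufflinks, lists *Ivl*, *Plau* and *Nanog* among the genes upregulated in TG papillomas. The growth factor gene *Areg* had a log2 difference of 0.73, and *Vegfa*, *Lor* and *Ccnd1* had -0.27, -0.42 and -0.21.

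**Figure D5:**
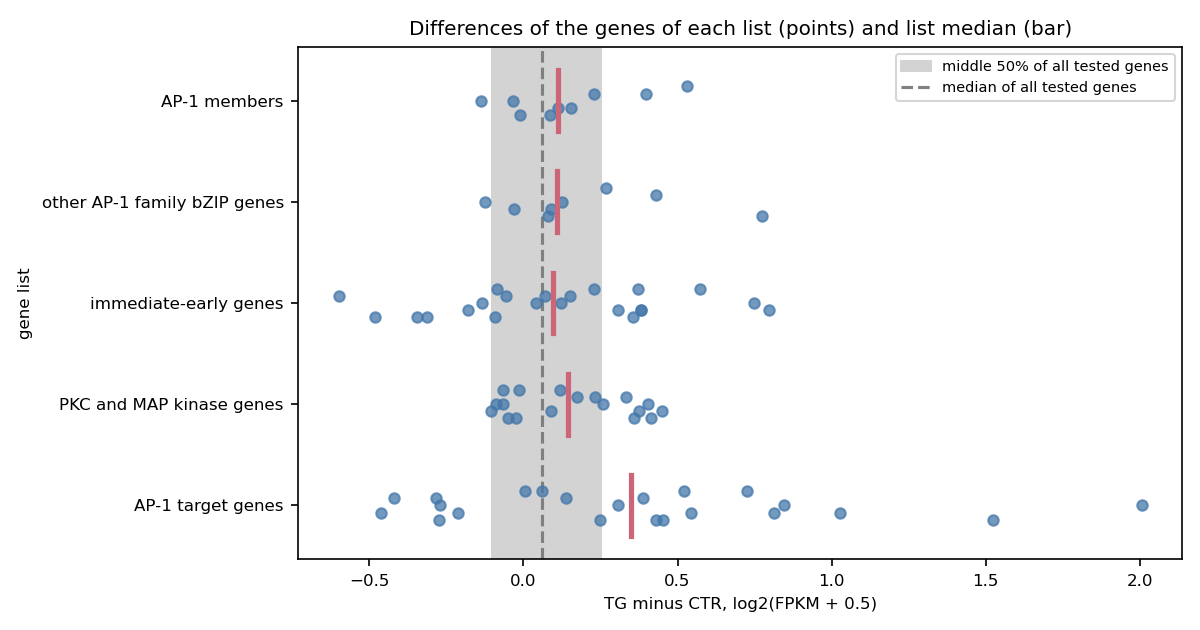
Difference of TG minus CTR papillomas on the log2(FPKM + 0.5) scale for each tested gene of the AP-1 family and of the 4 related lists (points), with the list median (red bar) and the middle 50% of all 12299 tested genes (grey band). The list medians lie between 0.10 and 0.35, beside 0.06 for all tested genes, and *Ivl* at 2.01 and *Plau* at 1.52 lie farthest to the right.

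The genes with the most similar pattern over the 7 papillomas differed from member to member. Likeness was measured as the root mean square difference of centered log2(FPKM + 0.5) values, and the 3 nearest of all tested genes were taken for each of the 9 genes. *Fosl2* had the closest neighbor, *Ddx17* at 0.0414, followed by *Malat1* at 0.0798 and *Ppip5k1* at 0.0860, while the root mean square of *Fosl2* itself was 0.362. *Junb* was nearest to *Igsf8* at 0.0686, the water channel gene *Aqp3* at 0.0972 and *Gm5414* at 0.10. *Fosl1* was nearest to *Kctd11* at 0.106, and its overlapping neighbor *Ccdc85b* came next at 0.110. *Jun* was nearest to *Pisd-ps2* at 0.106, *Pisd-ps1* at 0.127 and *Mpzl3* at 0.137. *Jund* was nearest to *Fam100b* at 0.106, *Fosb* to *Orai2* at 0.0911 and *Atf3* to *Arhgap44* at 0.0860. The nearest genes of *Fos* and *Maff* lay farther away, *Snora69* at 0.189 and *1700055N04Rik* at 0.215. This distance grows with a gene's own spread, and *Fos* and *Maff* varied the most of the 9 genes. Their own root mean squares were 0.522 and 0.609, beside 0.266 for *Fosb* and 0.302 for *Jund*. The values of short RNAs such as *Snora69* are uncertain in polyA libraries. Within the family, *Junb* and *Jund* were the closest pair at 0.209 and *Atf3* and *Maff* the most distant at 0.906.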

How the data were processed

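Each papilloma had a separate library of polyA+ RNA, sequenced as single reads of 40 bases. Alignment to GRCm38/mm10 used TopHat 2.0.4 (with Bowtie 0.12.7, Samtools 0.1.16), and Cufflinks 1.3.0 estimated abundances per library. The values deposited by the authors are FPKM, each with an interval and a status, and not read counts. Depth was therefore inferred from the intervals and is approximate. Intervals cover counting error only.

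Entries of a symbol were summed (240 symbols), and 162 symbols with a failed estimate were left out. Values were put on the log2(FPKM + 0.5) scale. The 12299 symbols with a mean of at least 0.5 FPKM were fitted with limma 3.58.1 in R 4.3.3 (trended variances, Benjamini-Hochberg adjustment over all tested genes, 2-sided), which was tested on simulated data. Exact permutation tests were 2-sided. Figures and tests used Python 3.11.15 and scipy 1.17.1.

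The AP-1 genes and the lists were chosen with earlier results of these data known. The text names all 10 AP-1 genes, *Nanog*, the 3 genes with the smallest p in each direction of each list, and the genes nearest in pattern. 1 gene under this rule is not reported here. Of these last, 3 per AP-1 gene were computed and some are named. 19 alternatives were tried, 1 of them (the papillomas of lower depth only, without CTR 3 and TG 1) chosen after the data had been seen. Cuffdiff and protein sequences were not used here. The labels name no batch.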

Additional observations from a re-analysis of the deposited data

Results flagged for a closer look

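In 43 results, the CTR papillomas (n = 4) were examined for a value far from the others with Dixon's ratio, the gap to the nearest other value divided by the whole range. In 2 of them the ratio passed the 95% critical value for 4 samples. *Junb* was low in CTR 2, at 70.9 FPKM against 117.8 to 128.4 FPKM in the other CTR papillomas (ratio 0.854). *Nanog* was high in CTR 3, at 12.7 FPKM against 2.70 to 3.34 FPKM (ratio 0.871 on the log2 scale). Chance alone flags about 1 in 20 groups.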

How the results depend on the processing

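In 169 fits of single AP-1 genes over the 19 alternatives, 0 had an adjusted p under 0.05 in limma, and the difference changed sign in 20, so only *Fosl2* (0.18 to 0.61) and *Jun* (0.29 to 0.68) kept their direction under every alternative. Leaving out each papilloma in turn gave log2 differences of -0.28 to 0.29 for *Fos*, -0.043 to 0.25 for *Fosb*, -0.37 to 0.14 for *Fosl1*, -0.11 to 0.27 for *Junb*, -0.086 to 0.34 for *Jund*, -0.56 to 0.19 for *Atf3* and -0.073 to 0.63 for *Maff*. The same gave -0.21 to 0.10 for *Mafg*, -1.11 to -0.037 for *Arc*, -0.31 to 0.064 for *Map2k2*, -0.18 to 0.029 for *Mapk3*, -0.89 to 0.041 for *Lor*, -0.74 to 0.13 for *Ccnd1* and 0.12 to 0.59 for the median of the AP-1 targets. Quantile normalization turned *Fosb* to -0.050. In the papillomas of lower depth only, *Fosl1* was at 0.015, *Atf3* at 0.21, *Maff* at -0.00075, *Mafg* at 0.092, *Arc* at 0.23, *Mapk3* at 0.081 and *Ccnd1* at 0.18.

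An unadjusted p under 0.05 was reached by *Jun* with quality weights (0.0261) and without CTR 1 (0.0372), by *Fosl2* without TG 1 (0.0495) and by *Atf3* without TG 3 (0.0272), so the count was 0 to 1 when a papilloma was left out and 1 with quality weights. The count of AP-1 genes without overlap was likewise 0 to 1, with *Jun* (without CTR 1), *Fosl1* (without CTR 2) and *Atf3* (without TG 3). Of the family sums and shares, the *Jund* share ran from -0.933 to 1.28 percentage points (-0.846 at lower depth), the Jun sum from -0.042 to 0.31 on the log2 scale, and the *Fosb* share from -0.437 to 0.277 percentage points (0.0446 at lower depth).

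Over all genes, limma called 0 at an adjusted p under 0.05, with 598 higher and 241 lower in TG papillomas at an unadjusted p under 0.05. With quality weights 49 and 36 were called, with 1161 and 1248 at the unadjusted threshold. At lower depth 1 was called higher. Leaving out a papilloma called 0 to 9 higher and 0 to 8 lower (the most without TG 3), and 364 to 824 higher and 121 to 522 lower at the unadjusted threshold. Without the filter 961 were higher at that threshold, and with upper-quartile scaling and quantile normalization 418 and 551 were lower. Among the AP-1 targets *Ivl* was called with quality weights and without TG 3, a count of 0 to 1 over the papillomas left out, and the weights moved the median to -0.071. The cause of these shifts was not tested.

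The groups share replicate numbers 1 to 3, but same-numbered papillomas did not deviate together (correlations of -0.186, 0.0431 and -0.146 over genes), so they were not treated as pairs. With the replicate block, which drops CTR 4, *Fos* was at 0.29 and *Fosl1* at 0.056, and 0 genes were called.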
